A study of Cricetulus griseus with 16 samples.

Results

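Heat shock transcription factors (HSFs) are DNA-binding proteins that switch on chaperone genes when proteins unfold. HSF1 is the main heat-responsive member, HSF2 can form mixed trimers with it, and HSF4 is best known from the lens. HSBP1, heat shock factor binding protein 1, is a small coiled-coil protein that binds the trimer of HSF1 and is described as a brake on it. In unstressed cells HSF1 is held as an inactive monomer by chaperones, and heat releases it to form trimers, which are phosphorylated and bind heat shock elements in target promoters. This activation acts on protein that is already there, so the level of Hsf1 mRNA and the activity of HSF1 are separate quantities, and the data described here measure mRNA only.

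The genes described are Hsf1 (ENSCGRG00001014559), Hsf2 (ENSCGRG00001000171), Hsf4 (ENSCGRG00001010856) and Hsbp1 (ENSCGRG00001016781), chosen by symbol from the gene names of the count table without regard to case. All 4 were found among 20824 genes, of which 14960 had at least 1 count in any library. RNA was sequenced from CHO cells (ATCC CCL-61), a line from Chinese hamster ovary, in 4 groups of 4 cultures with the letters A to D. One group was kept at 37 °C, one was heated to 40 °C for 1 h, one to 40 °C for 6 h and one to 42.5 °C for 1 h, and no group carried a transgene or a drug treatment. Library totals were 10504192 to 14668365 counts, so that 3 counts, used as a floor, correspond to 0.205 to 0.286 CPM, which is the count scaled to a common library size.

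One control library, 37 °C replicate D, stood apart. Across 10330 genes its log2 CPM correlated with the other 37 °C libraries at Pearson's r of 0.9725 to 0.9752, against 0.9962 to 0.9968 among replicates A, B and C, and the study left a control out of its analysis. The 37 °C group below therefore has n = 3, and the comparisons with it are also given with replicate D where that ends a call. Transcripts of mesenchymal cells were abundant in every group, with a mean Vim level of 2007 to 2323 CPM. Ptprc and Cd3e, which mark blood cells, had at most 1 count in any of these libraries, and Fshr, which marks granulosa cells, had 0 counts in each of the 15. Pecam1, of endothelium, and Alb, of hepatocytes, had at most 4 counts. Amh, also a granulosa gene, was present at low level with 24 to 90 counts (group means of 2.72 to 4.83 CPM, the highest after 6 h at 40 °C and the lowest at 42.5 °C), and Cdh1, an epithelial gene, with 22 to 48 counts (1.8 to 2.91 CPM). The part of these in the results was not tested. Levels are given as CPM scaled by TMM (trimmed mean of M values), a per-library unit that is not divided by transcript length, so levels of different genes are not ranked against each other. Groups were compared with edgeR's quasi-likelihood test, and a gene was said to rise or fall when its Benjamini-Hochberg adjusted p over all genes tested was under 0.05.

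Hsf1 mRNA was present at more than 100 CPM in all libraries and moved little. The 37 °C libraries A, B and C had 109.8, 117.8 and 116.2 CPM, and replicate D had 117.1 CPM. After 1 h at 40 °C the 4 libraries had 116.9, 117.4, 117.1 and 120.2 CPM. This group lay inside or just above the range of the controls and was the tightest of the 4, with a mean of 118 ± 1.55 CPM (SD, n = 4). After 6 h at 40 °C the values were 131.5, 123.6, 117.9 and 121.4 CPM, with the lowest of them almost level with the highest control. After 1 h at 42.5 °C the values were 104.7, 103.6, 108.5 and 100.7 CPM, and all 4 lay below every library of the other groups, replicate D included. Of all genes tested, 23.1% lay below 37 °C in this way, 18.2% below 1 h at 40 °C and 21.3% below 6 h.

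Hsf1 therefore fell at 42.5 °C. Against 37 °C the log2 fold change was -0.14 ± 0.05 (SE, edgeR adjusted p = 0.021), a change of -9.22%. Across all genes tested in that comparison 22.3% fell, so such a call was common there. With all 4 control libraries the value stayed at -0.14 and the adjusted p was 0.109. The call also ended without 37 °C replicate B (adjusted p = 0.1) or C (adjusted p = 0.061) and without 42.5 °C replicate B (adjusted p = 0.0549) or D (adjusted p = 0.0531). The fall was larger against the other heated groups. Against 1 h at 40 °C it was -0.18 ± 0.04 (edgeR adjusted p = 0.00255), and against 6 h at 40 °C it was -0.25 ± 0.05 (edgeR adjusted p = 0.000411), or -16%. In these comparisons 19.6% and 24.5% of all genes tested fell. Both calls passed the test in each of 15 fits, which are the main fit and those with other settings or with 1 library left out.

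At 40 °C the Hsf1 level was not separated from 37 °C by the test. The log2 fold change was 0.04 after 1 h (95% interval -0.05 to 0.13, edgeR adjusted p = 0.713) and 0.11 after 6 h (interval 0.00 to 0.22, edgeR adjusted p = 0.121). After 6 h every library lay above the controls, if narrowly, which was so for 18.1% of all genes tested. The mean levels of Hsf1 thus ran from 104 ± 3.21 CPM at 42.5 °C through 115 ± 4.23 at 37 °C and 118 ± 1.55 after 1 h at 40 °C to 124 ± 5.76 after 6 h at 40 °C, and only the lowest group was separated from its neighbour by the test.

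**Figure D1:**
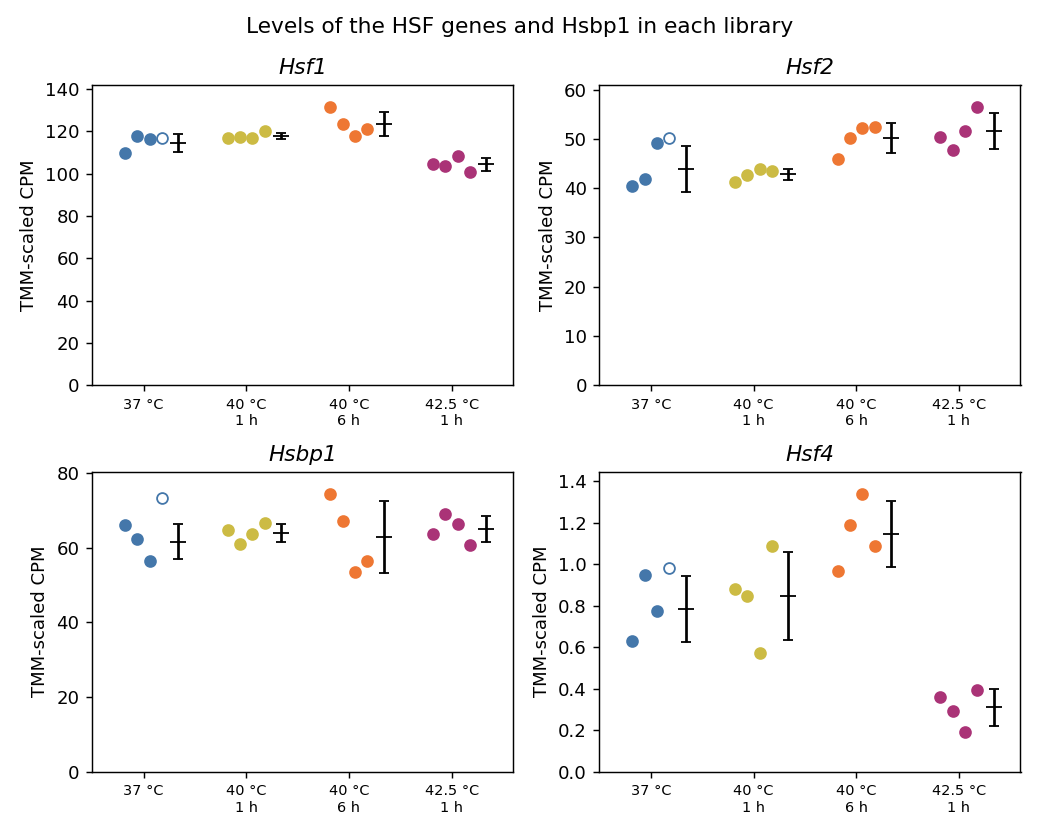
Levels of Hsf1, Hsf2, Hsbp1 and Hsf4 as TMM-scaled CPM (y axis, from 0, a scale of its own for each gene) in every library of the 4 groups (x axis). Filled points are libraries A to D from left to right, the open point is 37 °C replicate D, and the bar beside each group is the mean ± SD without it. The 42.5 °C libraries are the lowest for Hsf1 (100.7 to 108.5 CPM) and for Hsf4 (0.194 to 0.395 CPM), whereas for Hsbp1 all groups overlap.

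Hsf2 mRNA was higher after 6 h at 40 °C and after 1 h at 42.5 °C than after 1 h at 40 °C. In the 37 °C libraries A, B and C it stood at 40.4, 41.9 and 49.1 CPM, and replicate D had 50.2 CPM. The libraries heated to 40 °C for 1 h had 41.1, 42.6, 43.8 and 43.5 CPM. The control values were spread more widely than these, since replicates C and D lay above all 4 of them and A lay below. After 6 h at 40 °C the values were 45.8, 50.1, 52.2 and 52.5 CPM, and at 42.5 °C they were 50.4, 47.7, 51.5 and 56.4 CPM. Every library of both groups lay above every library of the group heated to 40 °C for 1 h, and both overlapped 37 °C replicate C. Of all genes tested, 10.4% lay above in this way after 6 h and 15.8% at 42.5 °C.

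Against 1 h at 40 °C, Hsf2 rose by a log2 fold change of 0.24 ± 0.06 after 6 h at the same temperature (edgeR adjusted p = 0.0103) and of 0.27 ± 0.06 at 42.5 °C (edgeR adjusted p = 0.00223). These are 17.8% and 20.4%, and both passed in each of 15 fits. Among all genes tested, 9.45% rose in the first of these comparisons and 16.4% in the second. Against 37 °C the rises were of similar size and less firm. At 42.5 °C Hsf2 rose by 0.24 ± 0.07 (edgeR adjusted p = 0.0172), where 20.8% of all genes tested rose, and the adjusted p was 0.157 with all 4 controls, 0.102 without 37 °C replicate A and 0.081 without 37 °C replicate B. After 6 h at 40 °C Hsf2 rose by 0.20 ± 0.07 (edgeR adjusted p = 0.0472), where 14.7% of all genes tested rose, and only 7 of 15 fits passed. With all 4 controls this adjusted p was 0.314, and the call was also lost without 37 °C replicate A (0.209) or B (0.17) and without 6 h replicate B (0.0659), C (0.116) or D (0.0932).

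After 1 h at 40 °C Hsf2 differed from 37 °C by -0.03 on the log2 scale (interval -0.18 to 0.11, edgeR adjusted p = 0.877). The 6 h and 42.5 °C groups differed from each other by 0.03 (interval -0.10 to 0.17, edgeR adjusted p = 0.703). In order, the means were 42.8 ± 1.2 CPM after 1 h at 40 °C, 43.8 ± 4.65 at 37 °C (n = 3), 50.2 ± 3.07 after 6 h at 40 °C and 51.5 ± 3.65 at 42.5 °C. Neither the lower pair nor the upper pair was separated within itself by the test.

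Hsf4 mRNA was close to the limit of detection in all libraries. In counts, the 37 °C libraries A, B and C held 9, 13 and 9, and replicate D held 11. There were 13, 11, 7 and 14 counts after 1 h at 40 °C, 11, 15, 17 and 14 after 6 h, and 4, 3, 2 and 5 at 42.5 °C. The 42.5 °C libraries were the 4 lowest of all, 3 of them at or within 1 count of the floor of 3 counts. As levels they had 0.360, 0.295, 0.194 and 0.395 CPM, against 0.632, 0.951 and 0.776 CPM in the 37 °C libraries A, B and C.

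The usual filter on low counts (filterByExpr in edgeR) removed Hsf4 from the comparisons of 42.5 °C with 37 °C and with 1 h at 40 °C, and in that with 6 h at 40 °C it let Hsf4 through only because of the higher 6 h counts. Fitted with all genes that had at least 1 count, it was lower by -1.29 ± 0.48 against 37 °C (edgeR adjusted p = 0.0302), by -1.41 ± 0.43 against 1 h at 40 °C (edgeR adjusted p = 0.0113) and by -1.84 ± 0.41 against 6 h at 40 °C (edgeR adjusted p = 0.000228). In these fits 16.8%, 14.8% and 18.7% of all genes fell. The first of these did not hold without 37 °C replicate B (adjusted p = 0.149) or C (adjusted p = 0.0593) or without 42.5 °C replicate B (adjusted p = 0.064) or C (adjusted p = 0.0911), while with all 4 controls it was -1.36 with an adjusted p of 0.0255. The second passed in each of 12 fits. For this comparison and that with 37 °C, 1 of the fits was the joint fit of the 4 groups. It used the filter, which Hsf4 passed there through its counts outside 42.5 °C. Against 6 h at 40 °C the value with the filter was -1.83, and it is not counted as a call.

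Summed over libraries, Hsf4 had 14 counts at 42.5 °C, 31 at 37 °C, 45 after 1 h at 40 °C and 57 after 6 h. The 42.5 °C rate per library total was 0.382 times that at 37 °C (exact 95% interval 0.188 to 0.74), 0.356 times that after 1 h at 40 °C (0.181 to 0.661) and 0.264 times that after 6 h at 40 °C (0.136 to 0.479). These intervals cover counting error only. After 6 h at 40 °C the mean level was 1.15 ± 0.158 CPM and each library lay above the 3 controls, which was so for 18.1% of all genes tested. Replicate D, at 0.981 CPM, lay inside the range of the 6 h libraries. The log2 fold change of 0.55 did not pass, with an interval from -0.06 to 1.16 (edgeR adjusted p = 0.174). After 1 h at 40 °C it was 0.12 (interval -0.55 to 0.78, edgeR adjusted p = 0.912).

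In the RefSeq annotation of another assembly (CriGri-PICRH-1.0), Hsf4 overlaps Fbxl8, which encodes an F-box protein, Nol3 starts within 1 kb on one side, and Tradd is the nearest gene on the other. The sources used here do not state whether strand was used in counting, so reads from overlapping genes cannot be told apart with certainty. Fbxl8 stood at 3.02, 3.88 and 3.71 CPM in the 37 °C libraries A, B and C and at 2.25, 2.46, 2.23 and 2.53 CPM in the 42.5 °C libraries. It was lower at 42.5 °C in each of the 3 comparisons, by -0.57 against 37 °C (edgeR adjusted p = 0.0149), -0.93 against 1 h at 40 °C (edgeR adjusted p = 0.000744) and -0.81 against 6 h at 40 °C (edgeR adjusted p = 0.000814). The first of these calls was lost with DESeq2 and without 37 °C replicate B. Tradd, an adaptor of TNF receptor 1, fell by 0.50 at 42.5 °C on the log2 scale (edgeR adjusted p = 0.00089), and Nol3 differed from 37 °C by -0.04 (edgeR adjusted p = 0.878). Beside Hsf1, within 1 kb in the same annotation, lies BOP1, a ribosome biogenesis factor, whose log2 fold change at 42.5 °C was -0.19 (edgeR adjusted p = 0.00311, and 0.0504 with all 4 controls). The part of these neighbours in the values of Hsf4 and Hsf1 was not tested.

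Hsbp1 mRNA did not pass the test in any of the 6 comparisons, where its unadjusted edgeR p was 0.305 or more. The 37 °C libraries A, B and C had 66.0, 62.5 and 56.5 CPM, and replicate D was the highest of that group with 73.2 CPM. There were 64.8, 61.0, 63.6 and 66.6 CPM after 1 h at 40 °C and 63.6, 69.0, 66.3 and 60.8 CPM at 42.5 °C. After 6 h at 40 °C the values were spread most widely, at 74.4, 67.2, 53.6 and 56.4 CPM. All groups overlapped.

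The group means of Hsbp1 lay between 61.7 ± 4.78 CPM at 37 °C (n = 3) and 64.9 ± 3.51 CPM at 42.5 °C (n = 4). Against 37 °C the log2 fold changes were 0.05 after 1 h at 40 °C (interval -0.07 to 0.17, edgeR adjusted p = 0.741), 0.02 after 6 h (interval -0.17 to 0.21, edgeR adjusted p = 0.874) and 0.07 at 42.5 °C (interval -0.07 to 0.20, edgeR adjusted p = 0.411). With all 4 controls the first 2 turned to -0.01 and -0.04. The intervals leave no room for a change of 1.5-fold in either direction, while a change of a few percent remains within them.

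**Figure D2:**
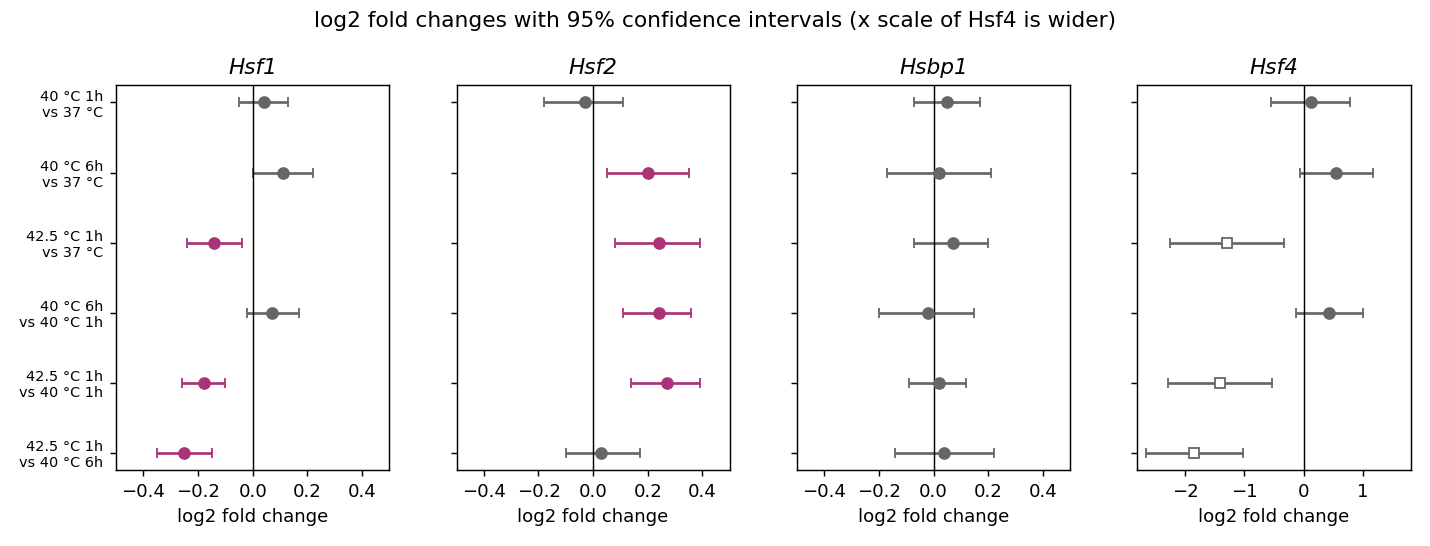
Log2 fold change (x axis) of Hsf1, Hsf2, Hsbp1 and Hsf4 in the 6 comparisons between groups (rows), with 95% confidence intervals from edgeR. Purple marks an adjusted p under 0.05, grey no call, and open squares the 3 Hsf4 values of 42.5 °C, which were fitted without the filter on low counts and are not coloured by their call. The Hsf1 intervals lie below 0 in the 3 comparisons of 42.5 °C (-0.14, -0.18 and -0.25), the Hsf2 intervals lie above 0 in 4 comparisons, and all 6 Hsbp1 intervals include 0.

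Counted by comparison, 0 of the 4 genes passed edgeR's test after 1 h at 40 °C (1.64% of all genes tested), also 0 at an unadjusted p under 0.05 and 0 with DESeq2, 1 of 4 after 6 h at 40 °C (29.4%) and 2 of the 3 that could be tested at 42.5 °C (43.1%). Between heated groups it was 1 of 4 for 6 h against 1 h at 40 °C (18.5%), 2 of 3 for 42.5 °C against 1 h at 40 °C (36.1%) and 1 of 3 for 42.5 °C against 6 h (47%), with Hsf4 left out of the last for the reason above. With so few genes these shares are not read as different from the background. Under the study's rule, which also asks for a fold change of at least 1.5, Hsf1, Hsf2 and Hsbp1 did not qualify in any comparison. Hsf4, fitted without the filter, met both limits at 42.5 °C, with folds of 0.409 against 37 °C and 0.376 against 1 h at 40 °C. Its 42.5 °C libraries held 2 to 5 counts, and the first of these values passed the test in 7 of 12 fits. Among the 7 is the joint fit of the 4 groups, which used the filter. Against 6 h at 40 °C the fold was 0.279, which is not counted here either. The share of all genes that met the rule without the filter was not computed. Among the genes that passed the filter, 8.25% met the rule in the comparison of 42.5 °C with 6 h at 40 °C. In the other comparisons 0.334% did after 1 h at 40 °C, 3.11% after 6 h and 7.51% at 42.5 °C against 37 °C, 1.28% for 6 h against 1 h at 40 °C and 5.27% for 42.5 °C against 1 h at 40 °C.

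Hsf1 fell and Hsf2 rose at 42.5 °C, and their proportion within a library, which does not depend on how libraries are scaled, was computed after the levels had been seen. For every 100 counts of Hsf1 there were 36.8, 35.6 and 42.3 counts of Hsf2 in the 37 °C libraries A, B and C and 42.8 in replicate D. The range was 35.2 to 37.4 after 1 h at 40 °C and 34.8 to 44.3 after 6 h. At 42.5 °C the libraries had 48.1, 46.0, 47.5 and 56.0, all above every other library. Because the ratio was formed after both shifts were seen, it is given as a description with no test.

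The proportion of Hsbp1 to Hsf1 was also highest at 42.5 °C, with 60.4 to 66.6 counts of Hsbp1 for every 100 of Hsf1. It was 48.7 to 60.1 at 37 °C, 51.9 to 55.4 after 1 h at 40 °C and 45.5 to 56.6 after 6 h. Here 37 °C replicate D, at 62.5, lay inside the 42.5 °C range.

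**Figure D3:**
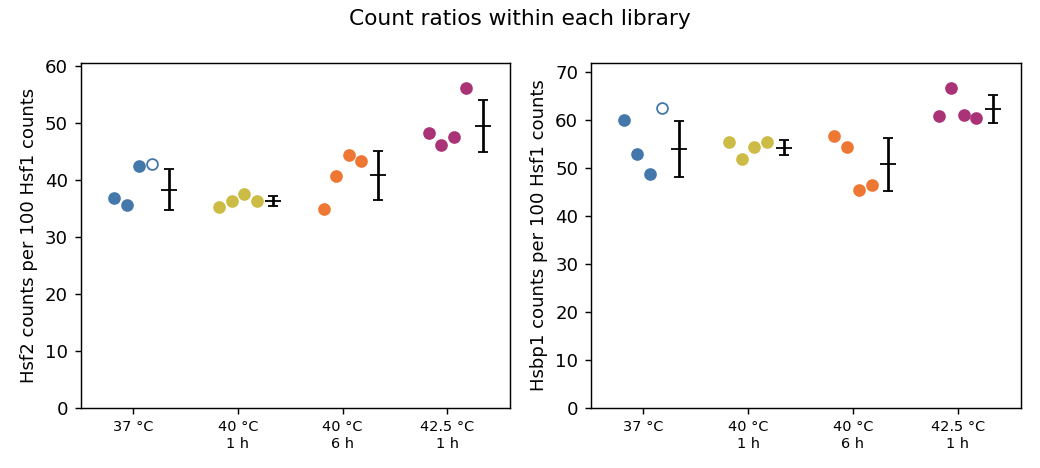
Counts of Hsf2 (left) and Hsbp1 (right) for every 100 counts of Hsf1 in the same library (y axes, from 0) in the 4 groups (x axis). Points are libraries, the open point is 37 °C replicate D, and bars are the mean ± SD without it. On the left the 42.5 °C libraries (46.0 to 56.0) lie above all others, and on the right the open point (62.5) lies among them (60.4 to 66.6).

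Over the 15 libraries, log2 CPM of Hsf1 and Hsf4 had a Pearson's r of 0.82, which fell to -0.12 once the mean of each group was subtracted. Hsf2 and Hsbp1 had an r of -0.36, and of -0.76 after the group means were subtracted. After 6 h at 40 °C replicate A had the lowest Hsf2 level and the highest Hsbp1 level, and at 42.5 °C replicate B did. At 37 °C replicate A was lowest for Hsf2 and, among A to C, highest for Hsbp1. Replicate D, left out of these correlations, was the highest control for both, at 50.2 and 73.2 CPM. After 1 h at 40 °C the orders were not opposite. There A to D had 41.1, 42.6, 43.8 and 43.5 CPM of Hsf2 and 64.8, 61.0, 63.6 and 66.6 CPM of Hsbp1. These correlations describe libraries that share treatment and scaling, and they are given without a test.

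Among 9362 genes with a symbol, those whose level followed Hsf1 most closely over the 15 libraries were Maz, a zinc finger factor (r = 0.92), Heg1 (r = 0.91) and Snap47 (r = 0.91). Once group means were subtracted these values were 0.53, 0.63 and 0.52. For Hsf2 they were Hook3, a microtubule adaptor (r = 0.96), Pak1, a kinase of the cytoskeleton (r = 0.94), and Shcbp1 (r = 0.91), and here r within groups stayed at 0.93, 0.84 and 0.83. Hsf4 was followed by Tbc1d10b (r = 0.96), Trim8 (r = 0.95) and Gga3 (r = 0.95), with values within groups of 0.76, 0.62 and 0.64, at Hsf4 levels near the floor. Hsbp1 was followed by Uqcr10, a subunit of respiratory complex III (r = 0.89), Gng5, a G protein subunit (r = 0.88), and Serf2 (r = 0.87), and within groups these reached 0.94, 0.91 and 0.87. The genes were picked as the highest values over these same libraries, so each r is a description of them only.

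Other genes of the HSF family were at or near the floor. Hsf3 had 0 to 3 counts in a library and Hsf5 had 0 to 4, the highest being 0.311 CPM in 40 °C 6 h replicate D. Hsfy2 and Hsbp1l1, a gene like Hsbp1, had 0 counts in each of the 15 libraries, where a count of 0 allows a level of up to 0.205 to 0.286 CPM. None of the 4 passed the filter. Hsfy1 and Hsf2bp were not found under these symbols.

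Most of the tested genes that HSF1 is known to switch on rose with heat. Of 30 target names chosen for this comparison, 23 were found by symbol and 20 could be tested. This list and those below were chosen with earlier results of these data known. Their shares beside those of all genes are therefore a description only. Hspa1a, Hspa1b, Hspa8 and Hsp90aa1 were among the 7 not found under these symbols, and no name was guessed for rows that carry an identifier only. After 1 h at 40 °C 13 of the 20 rose and 0 fell (1.07% of all genes tested rose), with a median log2 fold change of 0.29 beside 0.00 for all genes. After 6 h at 40 °C 16 rose and 1 fell (14.7% of all genes tested rose), with a median of 0.44, and at 42.5 °C 19 rose and 1 fell (20.8% rose), with a median of 0.70. With all 4 controls, 0, 10 and 15 of the targets passed, with 12 at an unadjusted p under 0.05 in the first case. Over all genes those fits called 4 of 10453, 1122 of 10448 and 1895 of 10408. With 1 library left out, the count after 1 h at 40 °C was 5 to 15, with 5 without 37 °C replicate B, 7 without A, 8 without C and 8 without 40 °C 1 h replicate C. The gene that fell in both cases was Ier5, an immediate early gene whose product binds HSF1, at -0.55 (edgeR adjusted p = 0.0149) and -0.47 (edgeR adjusted p = 0.0291), and it is named here after its values were seen. It did not pass with all 4 controls (adjusted p = 0.0615 and 0.0972).

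Some targets were lower after 6 h than after 1 h at 40 °C and others were not. Zfand2a, which encodes a zinc finger protein that associates with the proteasome, stood at 18.4 to 19.7 CPM in the 3 controls, at 33.8 to 93.9 CPM after 1 h at 40 °C, at 13.7 to 18.9 CPM after 6 h and at 261.9 to 565.6 CPM at 42.5 °C. It fell by 1.90 ± 0.26 on the log2 scale between 1 h and 6 h at 40 °C (edgeR adjusted p = 0.000193). Dnajb1, an HSP40 co-chaperone, fell by 0.97 over the same interval (edgeR adjusted p = 0.00453). It was still above 37 °C after 6 h, by 0.65 (edgeR adjusted p = 0.000112, and 0.0928 with 1 fit over all groups). Bag3, a co-chaperone of HSP70, fell by 0.72 (edgeR adjusted p = 0.00299). Hspb1, the small heat shock protein also known as Hsp25, had a log2 fold change of 0.42 instead (edgeR adjusted p = 0.155), and Serpinh1, the collagen chaperone Hsp47, rose by 0.54 (edgeR adjusted p = 0.00128). In all, 7 of 20 targets rose and 4 fell between the 40 °C groups, where 9.45% of all genes tested rose and 9.04% fell. Of these 11 calls 5 were left without 1 h replicate B and 5 without 6 h replicate B. Bag3 is named here after its values were seen.

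Replicates of 1 treatment were not alike in these targets. After 1 h at 40 °C Dnajb1 stood at 124.8 and 113.0 CPM in replicates A and C and at 53.0 and 59.7 CPM in B and D, and Zfand2a at 93.9 and 85.3 against 33.8 and 40.2 CPM. The Hsf1 levels of the same libraries were 116.9 and 117.1 CPM in A and C and 117.4 and 120.2 CPM in B and D. After 6 h at 40 °C Hspb1 stood at 205.4 and 206.8 CPM in replicates B and C and at 110.5 and 99.5 CPM in A and D, with Hsf1 at 123.6 and 117.9 and at 131.5 and 121.4 CPM. Dnajb1 did not share this split, since only B stood apart, with 39.8, 54.5, 41.6 and 42.4 CPM in A to D. At 42.5 °C Dnajb1 stood at 342.0, 463.4, 242.2 and 526.6 CPM in replicates A to D and Zfand2a at 280.1, 408.9, 261.9 and 565.6 CPM. There the order of Hsf1, at 104.7, 103.6, 108.5 and 100.7 CPM, was the reverse of that of both targets, highest in C and lowest in D. The cause of these differences between replicates was not tested.

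**Figure D4:**
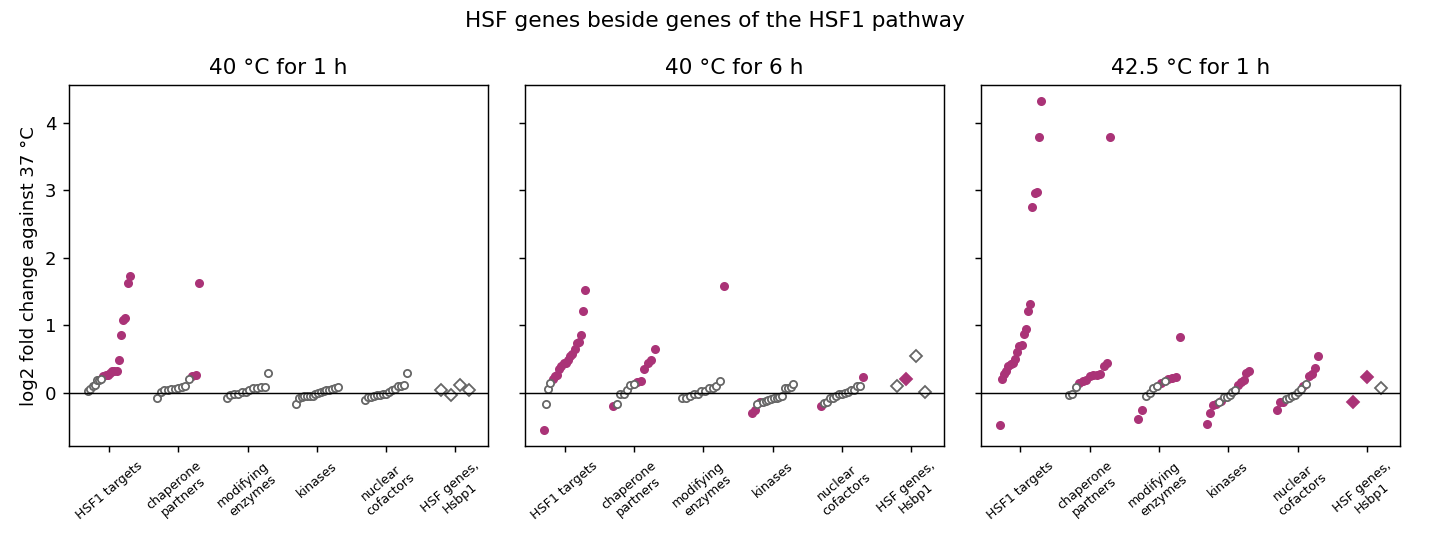
Log2 fold change against 37 °C (y axis) of each tested gene in 5 lists of the HSF1 pathway and of the HSF genes and Hsbp1 (x axis), in 3 panels for the heated groups. Purple points passed edgeR's test at an adjusted p under 0.05, open points did not, and diamonds are the HSF genes and Hsbp1. Dnajb1, Fkbp4, Hsp90ab1 and Ptges3 are each in 2 lists. The tested targets reach 4.32 at 42.5 °C, where the diamonds lie at -0.14, 0.24 and 0.07. Targets not found by symbol, among them Hspa1a and Hspa1b, are not shown.

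The list of chaperones and partner proteins described as holding HSF1 inactive includes several of its own targets. The 13 tested were Dnajb1, Hsp90ab1, Ptges3, Fkbp4, Fkbp5, Hdac6, Vcp and the TRiC chaperonin subunits TCP1, Cct2, Cct4, Cct5, Cct7 and Cct8. Of these 13, 3 rose after 1 h at 40 °C, 6 rose and 1 fell after 6 h, and 10 rose at 42.5 °C. In these comparisons 1.07%, 14.7% and 20.8% of all genes tested rose. At 42.5 °C those outside the target list to rise were Vcp, TCP1, Cct2, Cct4, Cct7 and Cct8. The 3 after 1 h were Dnajb1, Hsp90ab1 and Fkbp4, which are also in the list of targets. After 6 h the only ones outside that list to rise were Cct4 and Fkbp5. Fitted with all 4 controls, 0, 3 and 2 of the 13 passed (3 at an unadjusted p under 0.05 in the first case). Over all genes those fits called 4 of 10453, 1122 of 10448 and 1895 of 10408. Without replicate D, Dnajb1 had log2 fold changes of 1.63, 0.65 and 3.79 in these comparisons (edgeR adjusted p = 0.00334, 0.000112 and 4.75e-09). The first had no call when all 4 controls were used (adjusted p = 0.114), and the second none with 1 fit over all groups (adjusted p = 0.0928). Hsp90ab1, the constitutive HSP90, rose by 0.27, 0.49 and 0.40 (edgeR adjusted p = 0.0324, 2.97e-05 and 0.000167), and with all 4 controls the first of these had an adjusted p of 0.656. Fkbp4, an HSP90 co-chaperone, rose by 0.25 and 0.44 at 40 °C (edgeR adjusted p = 0.012 and 0.000136), and with all 4 controls the first had an adjusted p of 0.582. Ptges3, which encodes the co-chaperone p23, rose by 0.44 at 42.5 °C (edgeR adjusted p = 0.000506, and 0.112 with all 4 controls). Hdac6, a deacetylase in the complex of HSF1 with HSP90, fell by 0.20 after 6 h (edgeR adjusted p = 0.00441, and 0.174 with all 4 controls).

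Kinases that phosphorylate HSF1 or act upstream of it moved in small steps in both directions. Of 16 tested, 0 passed edgeR's test after 1 h at 40 °C (0 at an unadjusted p under 0.05, 0 with DESeq2), 3 fell after 6 h, and 5 rose and 5 fell at 42.5 °C. As shares these are 18.8% after 6 h, beside 29.4% of all genes tested, and 62.5% at 42.5 °C, beside 43.1%. When replicate D was included, 0 passed after 6 h (2 at an unadjusted p under 0.05) and 3 at 42.5 °C. Over all genes those fits called 1122 of 10448 and 1895 of 10408. After 6 h at 40 °C Mapk8, which encodes JNK1, fell by 0.29 (edgeR adjusted p = 0.00793), but its adjusted p was 0.623 with all 4 controls. At 42.5 °C Gsk3b, a kinase of an inhibitory site of HSF1, rose by 0.33 (edgeR adjusted p = 0.00109). Plk1, the mitotic kinase, fell by 0.30 (edgeR adjusted p = 3.94e-05), and Gsk3b and Plk1 each passed in 15 of 15 fits. Dyrk2, which phosphorylates HSF1 in tumour cells, fell by 0.46 (edgeR adjusted p = 0.000121), but with all 4 controls its adjusted p was 0.67. None of the 10 changed by 1.5-fold.

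Among 12 enzymes and modifiers that acetylate, deacetylate, sumoylate or ubiquitinate HSFs, 0 passed edgeR's test after 1 h at 40 °C (0 at an unadjusted p under 0.05, 0 with DESeq2), 1 rose after 6 h, and 5 rose and 2 fell at 42.5 °C. These shares are 8.33% beside 29.4% of all genes tested and 58.3% beside 43.1%. With all 4 controls 1 and 4 passed, beside 1122 of 10448 and 1895 of 10408 over all genes. The one that rose after 6 h was Hdac9, a class IIa deacetylase, at 2.82, 3.33, 2.92 and 2.80 CPM against 0.772, 0.951 and 1.29 CPM at 37 °C. Its counts were low, with 11 to 15 at 37 °C, 6 to 24 after 1 h at 40 °C, 32 to 42 after 6 h and 8 to 15 at 42.5 °C. Every 6 h library lay above these controls, which was so for 18.1% of all genes tested, and the log2 fold change was 1.58 ± 0.23 (edgeR adjusted p = 0.000104). It was raised also against 1 h at 40 °C, by 1.29 (edgeR adjusted p = 0.00342), and at 42.5 °C it was lower than after 6 h by -1.48 (edgeR adjusted p = 3.03e-05). At 42.5 °C the largest rise was in Crebbp, the acetyltransferase CBP, with 35.9, 38.0, 34.3 and 43.6 CPM against 21.4, 22.0 and 20.4 CPM in the controls, a log2 fold change of 0.83 ± 0.08 (edgeR adjusted p = 1.71e-06). In 37 °C replicate D Crebbp stood at 10.6 CPM, below all other libraries, and the call held with it. Cul3, the scaffold of a ubiquitin ligase, rose by 0.23 (edgeR adjusted p = 0.00139). Hdac7 fell by 0.39 (edgeR adjusted p = 0.000549), and Fzr1, an activator of the ligase APC/C that acts on HSF2, fell by 0.25 (edgeR adjusted p = 0.000426).

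Of 15 nuclear cofactors of HSF1, 0 passed edgeR's test after 1 h at 40 °C (3 at an unadjusted p under 0.05, 0 with DESeq2), 1 rose and 1 fell after 6 h, and 5 rose and 3 fell at 42.5 °C. These shares are 13.3% beside 29.4% and 53.3% beside 43.1%. With all 4 controls 0 (0 at an unadjusted p under 0.05) and 2 passed. Over all genes those fits called 1122 of 10448 and 1895 of 10408. Ccnt1, the cyclin of the elongation factor P-TEFb, rose by 0.54 at 42.5 °C (edgeR adjusted p = 0.00012), whereas its partner Cdk9 fell by 0.13 (edgeR adjusted p = 0.0258, and 0.0946 with all 4 controls), a call that held in 7 of 15 fits. Zc3hav1, a zinc finger antiviral protein, rose by 0.37 (edgeR adjusted p = 7.17e-05) and Daxx, a nuclear co-regulator, fell by 0.14 (edgeR adjusted p = 0.0195, and 0.0809 with all 4 controls, with a call in 10 of 15 fits). Over the 5 lists together 72 genes were tested, of which 13, 26 and 51 passed after 1 h at 40 °C, 6 h at 40 °C and 1 h at 42.5 °C, or 18.1%, 36.1% and 70.8%, beside 1.64%, 29.4% and 43.1% of all genes tested. With all 4 controls edgeR called 0, 11 and 24 of them, and 13 had an unadjusted p under 0.05 in the first case. Over all genes those fits called 4 of 10453, 1122 of 10448 and 1895 of 10408. Without replicate D, all 13 calls after 1 h at 40 °C were of genes in the target list.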

How the data were processed

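CHO cell RNA was sequenced in 16 libraries of paired reads. The authors mapped reads to the Chinese hamster genome CHOK1GS_HDv1 with CLC Genomics Workbench and deposited read counts per gene, without normalization. Strandedness and the treatment of reads with several mapping places are not given in the sources used here. The control library left out is the only 1 of 16 whose counts differ from those of the study's supplementary table, in which the other 15 match at 920 of 920 genes.

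Groups came from the sample labels. Counts were tested with edgeR 4.0.16 (R 4.3.3): filterByExpr (minimum count 10), TMM, glmQLFit and glmQLFTest on the libraries of both groups, Benjamini-Hochberg over all genes. The edgeR script was checked on simulated data. Correlations used log2 CPM with a prior count of 2. Named genes are the members, all other HSF genes, for each list and comparison with 37 °C the 3 largest rises and 3 largest falls with adjusted p under 0.05 and no overlap of libraries, and the 3 genes most like each member. Some of these are given by counts only, and 1 is not reported here. Genomic neighbours were added by position.

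The members and gene lists were chosen with earlier results of these data known. Alternatives were DESeq2's size factors, its Wald test (1.42.0), no filter, at least 10 counts in every library, all 4 controls, the letter of a replicate as a block, a joint fit of the 4 groups and each library left out. Alternatives for Hsf4 without a filter, and the ratios of counts, were chosen after seeing the data.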

Additional observations from a re-analysis of the deposited data

Results flagged for a closer look

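The Hsf1 level of 40 °C 1 h replicate D, 120 CPM, lay apart from the other 3 libraries of that group, which were within 116.9 to 117.4 CPM. The gap is small in absolute terms, because the other 3 are nearly equal. Sets of this size are singled out by chance in about 1 of 20 cases, and 16 sets, 4 genes in 4 groups, were looked at. Without this library Hsf1 kept its fall from 1 h at 40 °C to 42.5 °C, as in all 15 fits of that comparison (-0.19 to -0.16 on the log2 scale, edgeR adjusted p at most 0.0119).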

How the results depend on the processing

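For the 24 log2 fold changes of the 4 genes, 287 alternative values kept their direction and their side of the threshold, 21 kept the direction and lost the call, 18 changed sign and 0 gained a call. All sign changes were in values that had not passed. With all 4 controls the calls of Hsf1 (-0.14) and Hsf2 (0.19) at 42.5 °C and of Hsf2 after 6 h at 40 °C (0.15) were lost, Hsbp1 at 40 °C turned to -0.01 after 1 h and -0.04 after 6 h, and pathway genes past the test fell from 13, 26 and 51 to 0, 11 and 24. With all 4 controls, the calls over all genes fell from 172, 3091 and 4510 to 4, 1122 and 1895. With 1 fit over all groups 6 pathway genes in place of 13 passed after 1 h at 40 °C. The DESeq2 Wald test left Hsf2 after 6 h at 0.20 (adjusted p = 0.0678). With the replicate block it was 0.17 (adjusted p = 0.0532), Hsf4 after 1 h at 40 °C was -0.01, and Hsf4 at 42.5 °C without a filter was -1.43 (adjusted p = 0.0697). The labels do not say whether libraries of 1 letter were handled together. After group means were subtracted, libraries of the same letter correlated at a mean r of 0.05 (-0.05 to 0.16 over 21 pairs) and others at -0.02. With the block, calls over all genes against 37 °C went from 172, 3091 and 4510 to 634, 2986 and 4700. For 6 h against 1 h at 40 °C they went from 1931 to 2297. For 42.5 °C against 1 h and against 6 h they went from 3767 to 4040 and from 4904 to 5050. The cause of these shifts was not tested.

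With each library left out in turn, against 37 °C, Hsf2 ranged from -0.09 to 0.05, Hsf4 from -0.03 to 0.29 and Hsbp1 from -0.01 to 0.10 after 1 h at 40 °C, Hsf2 from 0.15 to 0.29 and Hsbp1 from -0.07 to 0.09 after 6 h, and Hsf1 from -0.17 to -0.12, Hsf2 from 0.18 to 0.32 and Hsf4 without a filter from -1.44 to -1.12 at 42.5 °C. Between heated groups, Hsbp1 ranged from -0.11 to 0.05 for 6 h against 1 h at 40 °C, from -0.01 to 0.05 for 42.5 °C against 1 h and from -0.03 to 0.13 against 6 h, and Hsf2 from -0.01 to 0.07 for 42.5 °C against 6 h. Pathway genes past the test ranged from 5 to 15 after 1 h at 40 °C, lowest without 37 °C replicate B, with 7 without A, 8 without C and 8 without 40 °C 1 h replicate C. For 6 h against 1 h at 40 °C they ranged from 6 to 19 around 14, with 6 without 1 h replicate B and 7 without 6 h replicate B. A minimum of 10 counts in every library gave no value for Hsf4, whose level limits every statement on it.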
